A study of Mus musculus with 12 samples.

Results

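The comparison of MC with CS asks whether small RNAs of cocaine-treated mice differed when l-methionine (MET) was given with the drug. It rests on 6 of the 12 libraries of the series, namely MC replicates 16, 17 and 20 and CS replicates 8, 9 and 10, which were chosen by their labels. Small RNA came from the prefrontal cortex (PFC; the protocol says medial PFC) of adult male C57BL/6 mice. CS mice received cocaine (20 mg/kg, i.p.) and saline during conditioned place preference (CPP) training with 8 pairing days, a procedure in which an animal learns to link a chamber with a drug. MC mice received the same cocaine training and MET at 1 g/kg, injected subcutaneously 2 times a day for 10 days. SS mice (saline, replicates 12, 13 and 14) and MS mice (the same MET with saline, replicates 3, 4 and 23) are the groups without cocaine and are given beside the results as controls. All animals went through the CPP procedure, and tissue was taken 2 h after the test. Each library holds RNA pooled from 2 animals, so a group of 3 libraries stands for 6 animals and the spread between single animals is not seen. RNA of 18 to 30 nt was recovered from a gel and read for 50 nt on a BGISEQ-500 instrument. Because the tissue is bulk cortex, a lower level of a cell type's miRNA can be fewer of those cells or less of that RNA per cell, and these cannot be told apart.

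A miRNA is cut from a hairpin precursor into a short mature strand, named 5p or 3p for the arm it comes from, and guides Argonaute proteins to messenger RNAs. Bases 2 to 8 of the mature strand, the seed, do most of the pairing, so miRNAs with 1 seed form a family that can share targets. In cortex, neurons are rich in miR-124, miR-9, miR-128 and miR-138, oligodendrocytes in miR-219 and miR-338, blood cells in miR-451a and miR-486, and let-7 marks differentiated cells in general. MET is the precursor of S-adenosylmethionine, the methyl donor of DNA methyltransferases, and the miR-29 and miR-148/152 families are known to target those enzymes.

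The following mature sequences belong to the miRNAs on which the description turns. They were taken from RefSeq on GRCm38.p6, which gave a sequence for 1160 of 1374 known mature miRNAs with a count, and the seed is in capitals. The let-7 family is shown first because its members share a seed and yet parted in 1 MC library.
let-7a-5p: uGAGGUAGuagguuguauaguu
let-7b-5p: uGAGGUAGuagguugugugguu
let-7c-5p: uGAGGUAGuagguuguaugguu
let-7e-5p: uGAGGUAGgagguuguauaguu
let-7f-5p: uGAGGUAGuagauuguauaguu
let-7g-5p: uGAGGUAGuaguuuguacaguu
let-7i-5p: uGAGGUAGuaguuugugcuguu
miR-98-5p: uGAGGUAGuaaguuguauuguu
The miR-29 family is shown for its known link to DNA methyltransferases, and miR-153-3p and miR-142a-5p because their seeds are the ones that passed the test once MC replicate 16 was left out.
miR-29a-3p: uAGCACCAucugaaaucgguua
miR-29c-3p: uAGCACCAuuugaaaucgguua
miR-153-3p: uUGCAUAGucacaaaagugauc
miR-142a-5p: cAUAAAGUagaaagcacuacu
The last set holds some of the miRNAs with the smallest p in either direction, and miR-183-5p and miR-96-5p, which lie beside miR-182 in the genome.
miR-7052-3p: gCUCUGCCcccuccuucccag
miR-326-3p: cCUCUGGGcccuuccuccagu
miR-137-5p: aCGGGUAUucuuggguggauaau
miR-615-3p: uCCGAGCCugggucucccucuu
miR-182-5p: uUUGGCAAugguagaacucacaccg
miR-183-5p: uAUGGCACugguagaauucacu
miR-96-5p: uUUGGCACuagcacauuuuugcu

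On GRCm38, the GENCODE annotation places Mir326 at chr7:99552269-99552363 in an intron of Arrb1, and Mir7052 at chr7:44470347-44470411 in an intron of Josd2. Mir153 lies at chr12:117250817-117250885 in an intron of Ptprn2 (and of Gm5441 on the other strand), and Mir615 at chr15:103014910-103015001 in an intron of Hoxc5. Mir182 (chr6:30165918-30165992), Mir96 (chr6:30169446-30169551) and Mir183 (chr6:30169668-30169737) lie together on the minus strand between genes. Mir142 is at chr11:87756864-87756927 in an intron of its noncoding host gene Mir142hg. Mir29a is at chr6:31062660-31062747, also between genes on the minus strand, while Mir29c (chr1:195037547-195037634) lies in an exon of the noncoding gene A330023F24Rik and, on the other strand, of Cd46.

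In units of 1e+06, the library totals were 8.47, 8.71 and 8.18 counts in CS and 7.77, 7.97 and 10.9 counts in MC, so that 3 counts correspond to at most 0.386 CPM (the count scaled to a library total of 1e+06). Intervals on counts given below cover counting error only. By the profile of 125 miRNA precursor families the 12 libraries were clustered into 3 sets that cross the treatments. The clustering was by average linkage on 1 minus Pearson's r, and the number of 3 sets was fixed from earlier results of these data. CS replicates 8 and 9 fell with SS replicate 12, CS replicate 10 fell with MC replicates 16 and 17, and MC replicate 20 fell with the other SS and all MS libraries. Among the 6 libraries, Pearson's r of these profiles was 0.846 to 0.929 within a set (4 pairs) and at most 0.272 between sets (11 pairs). The sets were made from these same correlations, so the gap describes the sets and does not test them. The set of CS replicate 10 held 5586, 6594 and 5964 CPM in CS replicate 10, MC replicate 16 and MC replicate 17 on 25 families that Rfam names for plants, led by MIR398, while CS replicates 8 and 9 and MC replicate 20 held 3.85 to 4.96 CPM on them. No label names a batch, so what the sets share is not known.

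MC replicate 16 stood apart in another way. Its level of a miRNA, as a log2 ratio to that miRNA's mean over the 12 libraries, was higher the higher the GC content of the mature strand (Spearman's rho 0.592 over 636 miRNAs, as a description), whereas rho lay between -0.293 and -0.0311 in the other 5 libraries. For the 244 miRNAs with at most 45.5% GC its median log2 ratio was -1.04, and for the 248 with at least 54.5% GC it was 0.30. The same medians in MC replicate 17 were 0.30 and 0.08, and in MC replicate 20 they were 0.29 and 0.10. For the fitted differences and list medians that moved most with this library, the value without it is given too.

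**Figure D1:**
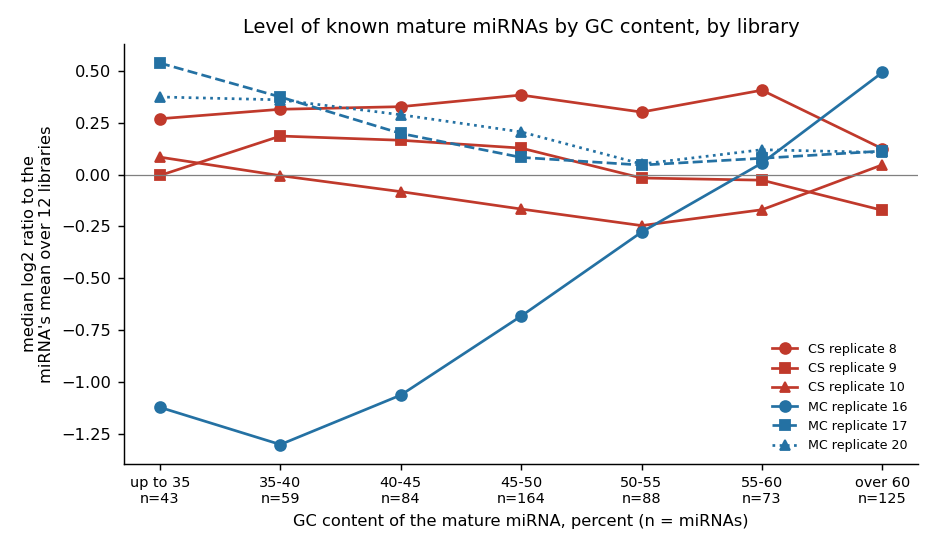
Median log2 ratio of known mature miRNAs to their mean over the 12 libraries (y axis) in 7 bins of GC content (x axis, with the number of miRNAs in each), 1 line for each of the 6 libraries. MC replicate 16 runs from -1.12 in the bin of lowest GC to 0.49 in the bin of highest GC, and the other libraries stay between -0.25 and 0.54.

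Mature miRNAs made up most of every library, and their share was smaller in every MC library than in every CS library. They took 62.8%, 65.8% and 60.8% of the counts in CS replicates 8, 9 and 10, and 56.0%, 60.6% and 59.3% in MC replicates 16, 17 and 20. The group means were 63.2% ± 2.53 (SD, n = 3) in CS and 58.6% ± 2.35 (SD, n = 3) in MC. The groups did not overlap, but MC replicate 17 lay only just under CS replicate 10, with which it shares a library set. Reads in introns went the other way, with 4.32%, 4.22% and 4.98% in CS and 5.26%, 5.07% and 5.26% in MC. Within the library set that holds both groups (CS replicate 10, MC replicates 16 and 17), the difference was -2.52 percentage points for mature miRNAs, against -4.54 over all 6 libraries, and 0.184 for introns, against 0.69. For both classes the exact two-sided permutation test gave p = 0.1, the smallest that 3 against 3 libraries can give, and an adjusted p of 0.75 over the 15 classes. The other 13 classes overlapped between the groups. In the groups without cocaine the mature share was 65.6% ± 2.24 (SS) and 63.0% ± 3.24 (MS) and the intron share 4.47% ± 0.247 and 3.83% ± 0.188 (SD, n = 3 each).

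Counted over annotated small RNAs alone, without repeats, exons, introns and intergenic regions, mature miRNAs took 82.9%, 84.6% and 82.3% in CS and 81.7%, 79.8% and 79.6% in MC. The order of the groups thus held on this scale, and MC replicate 16 was now the highest of its group rather than the lowest. Precursor families, the hairpin families to which the authors assigned further reads, took 11.5%, 11.2% and 11.9% of all counts in CS and 9.84%, 14.3% and 13.5% in MC. MC replicates 17 and 20 lay above all CS libraries and MC replicate 16 below them.

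Reads in exons took 16.1% in MC replicate 16 and 9.73% to 10.5% in the other 5 libraries, so the higher MC mean (12.1% ± 3.47 against 10.1% ± 0.382, SD, n = 3 each) rested on 1 library. The class of other Rfam families, which collects fragments of structured RNAs, was highest in MC replicate 16 (1.39%). MC replicate 20 (0.789%) also lay above the CS libraries (0.28% to 0.511%), and MC replicate 17 (0.307%) lay within their range. Repeats took 5.26%, 5.71% and 7.06% in CS and 5.94%, 4.2% and 4.04% in MC. Intergenic reads took 4.42%, 2.56% and 3.6% in CS and 4.13%, 4.76% and 6.06% in MC. Both classes overlapped between the groups.

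The small classes also overlapped. piRNAs, which silence transposons in the germ line, took 0.283% to 0.6% in CS and 0.414% to 0.735% in MC. Fragments of rRNA took 0.112% to 0.232% in CS and 0.0871% to 0.315% in MC, those of tRNA 0.0592% to 0.124% and 0.0532% to 0.15%, and those of snoRNA 0.027% to 0.052% and 0.0327% to 0.0643%. Fragments of snRNA took 0.00977% to 0.0143% in CS and 0.0121% to 0.0142% in MC. Predicted miRNAs took 0.0124% to 0.0608% in CS and 0.00825% to 0.067% in MC. Hairpins and siRNAs stayed at or below 0.00268% in all 6 libraries.

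**Figure D2:**
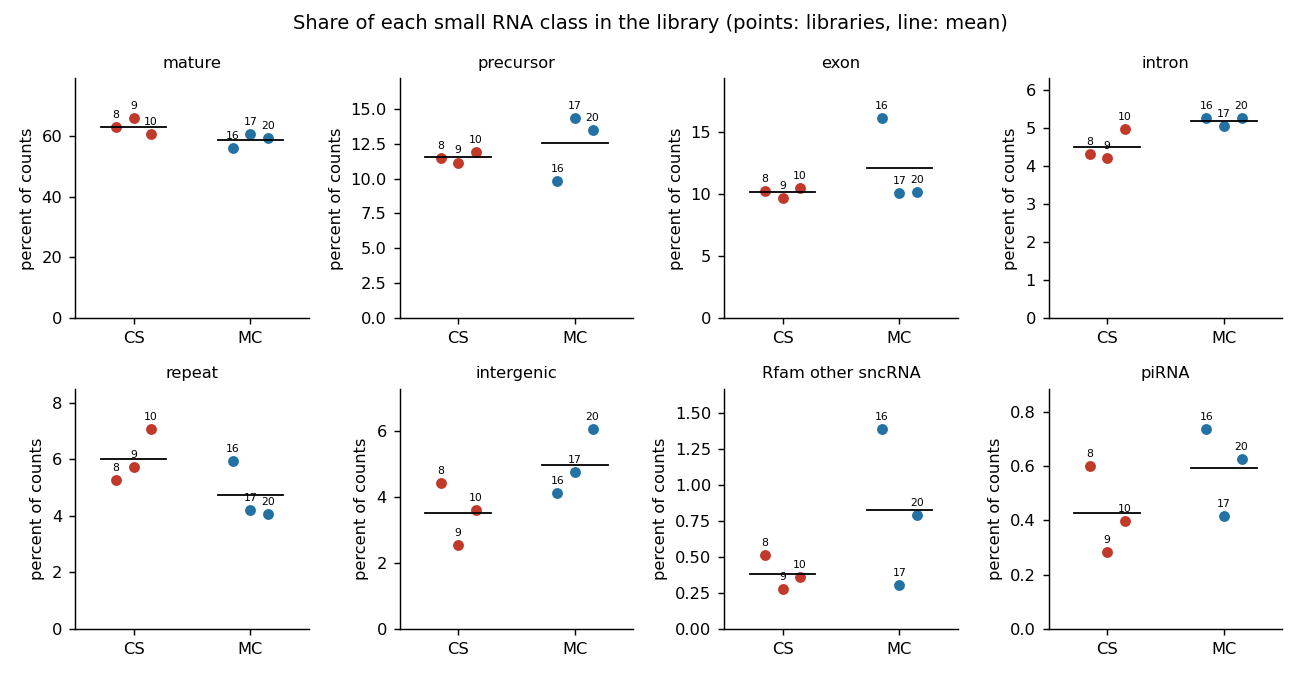
Percent of the library's counts (y axis) on 8 small RNA classes in the CS and MC libraries (x axis); points are libraries with their replicate number and lines are group means. The mature share of the 3 MC libraries (56.0% to 60.6%) lies below that of the 3 CS libraries (60.8% to 65.8%), their intron share lies above that of the CS libraries, and MC replicate 16 sets the high exon mean.

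The most abundant miRNA differed between libraries within each group. miR-9-5p led in CS replicate 8 (56930 CPM) and in MC replicates 17 and 20 (53760 and 59920 CPM), miR-124-3p led in CS replicates 9 and 10 (148900 and 154000 CPM), and let-7c-5p led in MC replicate 16 (116000 CPM). The 10 most abundant miRNAs of a library held 47.6%, 58.9% and 61.4% of its mature counts in CS and 63.9%, 49.0% and 49.7% in MC (exact permutation test, two-sided, p = 1). Strands named 5p held 72.4%, 58.3% and 56.1% of the 5p and 3p counts in CS and 74.2%, 68.7% and 70.8% in MC (exact permutation test, p = 0.3). CS replicates 9 and 10, the libraries with the lowest 5p share, are those with the most miR-124-3p. A count was found for 997, 949 and 963 known mature miRNAs in CS and 969, 991 and 1025 in MC (exact permutation test, p = 0.4). Predicted miRNAs held 0.0139% to 0.12% of the miRNA counts, with p = 0.8 by the exact permutation test.

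miR-124-3p, the most abundant miRNA of neurons, stood at 30000, 148900 and 154000 CPM in CS replicates 8, 9 and 10 and at 46350, 38720 and 33190 CPM in MC replicates 16, 17 and 20. The MC libraries lay close together, while CS replicate 8 lay below all of them. The groups without cocaine were split in the same manner, with 165300, 176300 and 70270 CPM in SS and 168200, 35550 and 171600 CPM in MS. The fitted log2 fold change was -1.35 ± 0.75 (SE; edgeR, adjusted p = 0.577). Reads of the mir-124 precursor family did not follow this split: they stood at 41660, 46340 and 54730 CPM in CS and 63280, 62270 and 52950 CPM in MC.

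Other abundant neuronal miRNAs were more even. miR-138-5p, which is enriched in brain and at dendrites, stood at 25710, 16470 and 19850 CPM in CS and 24940, 21920 and 27770 CPM in MC. miR-128-3p stood at 23770, 26190 and 17790 CPM in CS and 15950, 18000 and 23000 CPM in MC. miR-9-5p, a miRNA of neural progenitors and neurons, stood at 56930, 51100 and 48100 CPM in CS and 15390, 53760 and 59920 CPM in MC, so that MC replicate 16 was the lowest by far and the others overlapped. The same held for miR-26a-5p (CS 40480, 37950 and 33130 CPM; MC 16980, 40570 and 42760 CPM) and for miR-99a-5p (CS 30270, 25770 and 21870 CPM; MC 8939, 28320 and 27960 CPM).

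miR-181a-5p was the only one of the 10 most abundant miRNAs whose groups did not overlap. It stood at 24030, 19510 and 17420 CPM in CS and at 24840, 24860 and 26480 CPM in MC, with a log2 fold change of 0.52 ± 0.21 (SE; edgeR, unadjusted p = 0.0326, adjusted p = 0.577). Without MC replicate 16 the log2 fold change was 0.25. In the groups without cocaine it stood at 20840, 22470 and 26400 CPM (SS) and 24750, 30460 and 22740 CPM (MS), which overlapped.

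No miRNA passed the test of MC against CS: 0 of 780 known mature and predicted miRNAs (0%) had an adjusted p of at most 0.05 (edgeR, with the quasi-likelihood method and p-values adjusted after Benjamini and Hochberg). The smallest adjusted p was 0.577. At an unadjusted p under 0.05 there were 58 miRNAs, 40 higher and 18 lower in MC, and DESeq2 also called 0, with 47 at an unadjusted p under 0.05. The miRNAs below are therefore given as values, and none of them can be told from the spread between libraries.

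All 3 MC libraries lay above all 3 CS libraries for 23 of 746 known mature miRNAs tested (3.08%) and below them for 14 (1.88%). Of the 23, 20 had a sequence, with a median GC content of 61.0%, against 50.0% over all 636 tested miRNAs with a sequence and 45.5% over 13 of the 14. The mean CPM of the 23 ran from 0.277 to 22860 and had a median of 7.34, which is close to that of all tested (7.22). The 14 were mostly rare, and only miR-183-5p had a mean over 20 CPM.

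**Figure D3:**
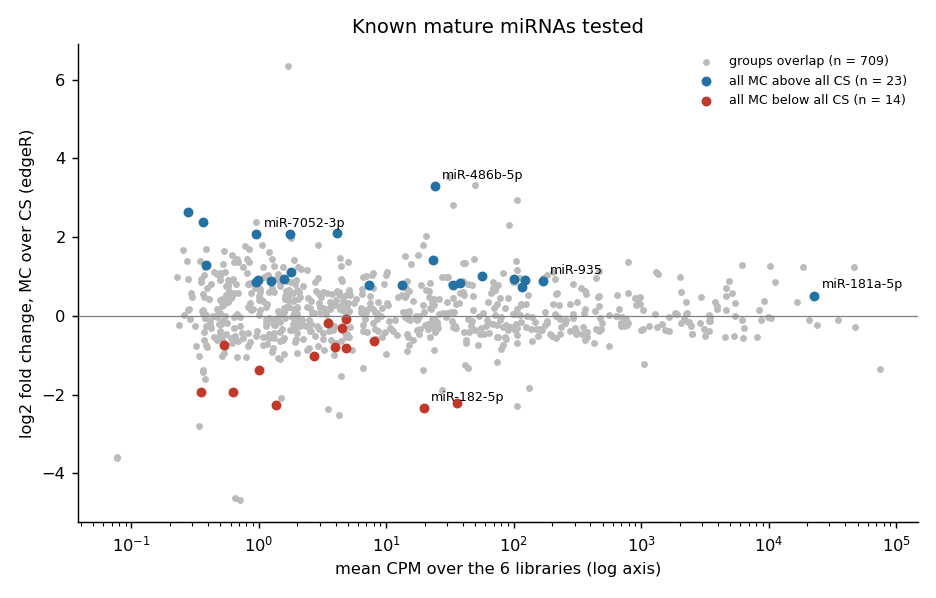
Log2 fold change of MC over CS from edgeR (y axis) against the mean CPM over the 6 libraries on a log axis (x axis) for the 746 known mature miRNAs tested. Blue points (23) have all MC libraries above all CS libraries, red points (14) have all below, and miR-181a-5p is the blue point at the right.

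Among the 6 known miRNAs with the smallest p that were higher in MC, the best measured were miR-326-3p and miR-935. miR-326-3p, a brain miRNA from an intron of the beta-arrestin gene Arrb1, stood at 113, 66.1 and 91.4 CPM in CS and at 115, 178 and 178 CPM in MC (log2 fold change 0.92 ± 0.30, SE; edgeR, adjusted p = 0.577). MC replicate 16 was only just above CS replicate 8. In the groups without cocaine miR-326-3p stood at 70.5, 94.4 and 90.6 CPM (SS) and at 107, 233 and 191 CPM (MS). miR-935 stood at 146, 99.3 and 146 CPM in CS and at 214, 209 and 208 CPM in MC, with little spread among the MC libraries (log2 fold change 0.88 ± 0.29, SE; edgeR, adjusted p = 0.577), and without MC replicate 16 the log2 fold change was 0.57. SS held 112, 101 and 139 CPM of it and MS 135, 189 and 166 CPM.

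The other 4 of these were low or uncertain. miR-486b-5p stood at 4.13, 9.65 and 3.3 CPM in CS and at 77.6, 19.2 and 30.5 CPM in MC. It has the same mature strand as miR-486a-5p, both being erythroid miRNAs, and reads can fall to either name: miR-486a-5p stood at 49.9, 14.7 and 20.4 CPM in CS and 2.58, 25.8 and 3.57 CPM in MC. The 2 names together gave 54.1, 24.3 and 23.7 CPM in CS and 80.2, 45.02 and 34.1 CPM in MC, and these overlapped. miR-7052-3p was counted 5, 3 and 2 times in CS and 11, 14 and 15 times in MC. miR-137-5p, the minor strand of a neuronal hairpin, stood at 2.36, 1.15 and 2.32 CPM in CS and 12.0, 4.01 and 3.02 CPM in MC, with a log2 fold change of 2.09 that was 0.75 without MC replicate 16. miR-467a-3p stood at 0.708, 0.459 and 0.856 CPM in CS and 0.644, 2.88 and 2.02 CPM in MC.

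Chosen after their values were seen, the other miRNAs over a mean of 20 CPM with all MC libraries above all CS libraries were miR-296-5p, miR-129-2-3p, miR-129-1-3p, miR-671-5p, miR-329-5p and miR-702-3p. miR-296-5p stood at 84.3, 62.4 and 79.6 CPM in CS and at 136, 129 and 110 CPM in MC. The 3p strands of both miR-129 hairpins, which give a miRNA enriched in brain, had the same order. miR-129-2-3p stood at 107, 88.5 and 83.5 CPM in CS and at 126, 154 and 133 CPM in MC, and miR-129-1-3p at 21.0, 30.8 and 26.0 CPM in CS and at 35.7, 40.4 and 47.4 CPM in MC. miR-671-5p, which directs cutting of the circular RNA Cdr1as, stood at 37.3, 24.5 and 56.3 CPM in CS and 62.6, 96.2 and 63.1 CPM in MC. miR-329-5p, of the Dlk1-Dio3 cluster, stood at 34.7, 27.1 and 26.6 CPM in CS and at 48.5, 35.4 and 53.5 CPM in MC, and miR-702-3p at 18.5, 8.84 and 17.2 CPM in CS and at 48.0, 23.6 and 22.8 CPM in MC. The log2 fold changes of these 6 ran from 0.74 to 1.41 with MC replicate 16 and from 0.50 to 0.87 without it, all with an adjusted p of 0.577 by edgeR.

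Among the 6 with the smallest p that were lower in MC, miR-182-5p was the most abundant of those whose groups did not overlap. This sensory-cell miRNA stood at 11.6, 17.0 and 69.7 CPM in CS and at 4.38, 5.14 and 10.4 CPM in MC (log2 fold change -2.33 ± 0.85, SE; edgeR, adjusted p = 0.577). The groups did not overlap, and CS replicate 10 stood far above the rest. Without that library the log2 fold change was -0.93. Its neighbours followed the same library: miR-183-5p stood at 17.4, 27.6 and 129 CPM in CS and 7.34, 15.1 and 17.0 CPM in MC, and miR-96-5p at 1.89, 5.05 and 20.2 CPM in CS and 0.644, 6.02 and 5.59 CPM in MC. miR-200a-3p and the epithelial miR-200 family were also highest in CS replicate 10, with a family sum of 134, 224 and 987 CPM in CS and 58.8, 220 and 406 CPM in MC. In the groups without cocaine the highest library was MS replicate 3, with 31.9 CPM of miR-182-5p and 785 CPM of the miR-200 family.

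The other 5 rested on few counts or on 1 or 2 libraries. miR-205-5p, a miRNA of skin and other epithelia, stood at 20.2 CPM in CS replicate 8 and between 0.733 and 1.38 CPM in the other 5 libraries. miR-203-3p, also of skin, was highest in that same library (209 CPM against 23.4 to 76 CPM). miR-467b-5p stood at 63.1, 62.4 and 6.72 CPM in CS and 5.66, 15.1 and 12.5 CPM in MC. CS replicates 8 and 9, which share a set, were thus high, and CS replicate 10 was low like the MC libraries. miR-615-3p, from the Hoxc cluster, was counted 36 times over the CS libraries, none of them in replicate 10, and 1 time over the MC libraries, a ratio of 37.8 (95% exact interval 6.37 to 1535) that was 19.2 without CS replicate 9 and, without MC replicate 17, a bound of at least 8.84. miR-15a-3p (1.06 to 1.96 CPM in CS, 0.129 to 1.01 CPM in MC) and miR-879-5p (0.826 to 4.13 CPM in CS, 0.258 to 0.753 CPM in MC) did not overlap but lay near the detection limit.

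**Figure D4:**
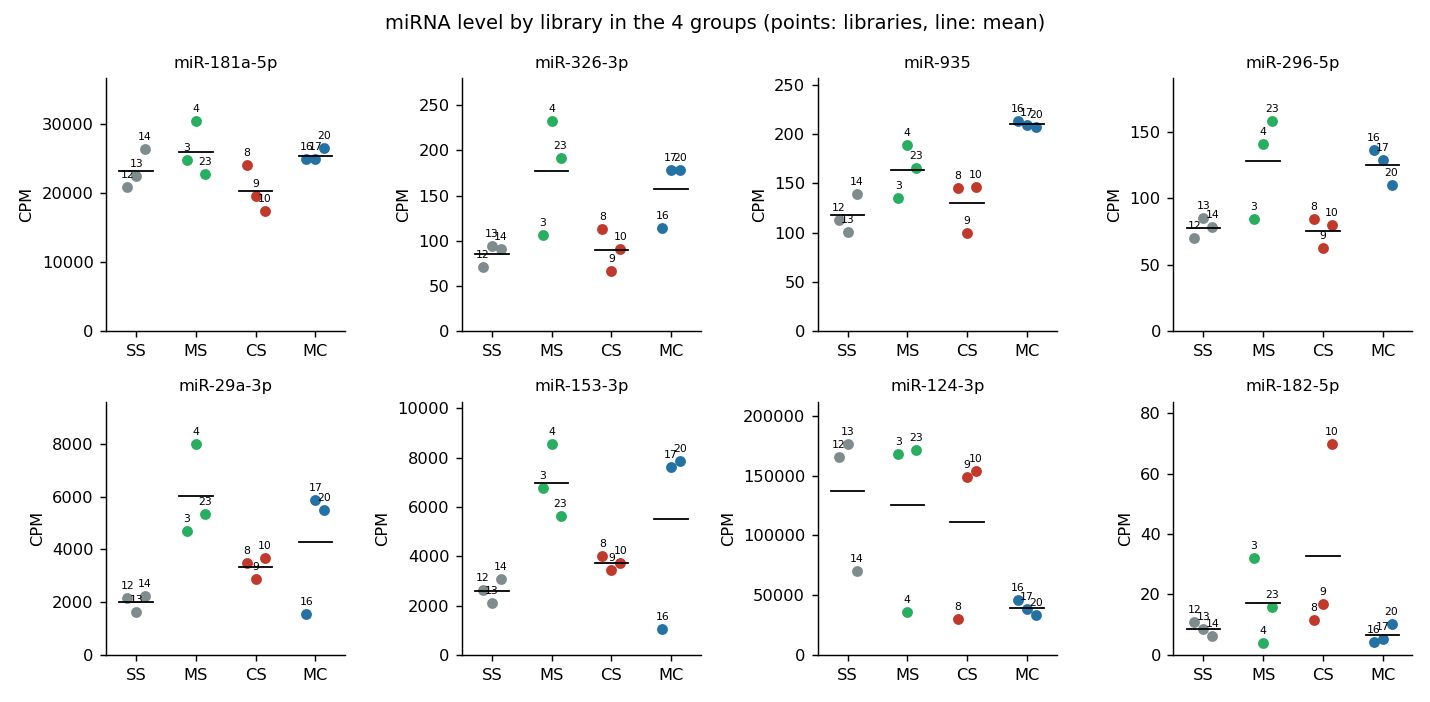
CPM (y axis, from 0) of 8 miRNAs in the 12 libraries of the 4 groups (x axis); points are libraries with their replicate number and lines are group means. miR-181a-5p, miR-326-3p, miR-935 and miR-296-5p are higher in all MC than in all CS libraries, while in miR-29a-3p and miR-153-3p MC replicate 16 (1532 and 1043 CPM) lies far below MC replicates 17 and 20.

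Summing the known mature miRNAs by seed gave 543 families to test, of which 0 (0%) passed at an adjusted p of 0.05 by edgeR, and 42 had an unadjusted p under 0.05 (31 higher and 11 lower in MC; DESeq2 called 0 too). All MC libraries lay above all CS libraries in 19 families (3.5%) and below in 12 (2.21%). The families with the smallest p were mostly single miRNAs already given: CUCUGCC (miR-7052-3p) and CGGGUAU (miR-137-5p) among the higher, CCGAGCC (miR-615-3p), UUGGCAA (miR-182-5p), CCUUCAU (miR-205-5p), GAGGCUU (miR-879-5p) and AGGCCAU (miR-15a-3p) among the lower. Of the others that were higher, GCUCUCU (miR-6973b-3p and miR-7063-3p) held 1 count over the CS libraries and 12 over the MC libraries, a ratio of 11.4 (95% exact interval 1.69 to 488), which without CS replicate 8 was a bound of at least 2.54. ACCACCU (miR-1306-5p) held 1 and 79, none of the 79 in MC replicate 20, a ratio of 75.2 (95% exact interval 13.1 to 3006) that was 37.6 without MC replicate 16 and, without CS replicate 10, a bound of at least 17.0.

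The fifth, GUCAGUU, is miR-223-3p, a miRNA of neutrophils and other myeloid cells. It stood at 5.67, 5.4 and 2.93 CPM in CS and at 1.29, 4.14 and 166 CPM in MC, so the difference was MC replicate 20 alone. Without that library the log2 fold change was -0.62. In the same library miR-199b-3p stood at 172 CPM against 0.376 to 11.6 CPM in the other 5, and miR-10a-5p at 159 CPM against 5.54 to 34.1 CPM. miR-199b-3p has the sequence of miR-199a-3p, and both names together gave 220 CPM in MC replicate 20 and 4.63 to 19.6 CPM in the other 5. miR-199 is known from fibroblasts and vessel walls, and miR-10a from Hox clusters.

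Leaving out MC replicate 16 let 2 of 537 seed families pass, both higher in MC. UGCAUAG is miR-153-3p, a neuronal miRNA known to target synaptic vesicle proteins and alpha-synuclein. It stood at 4005, 3427 and 3719 CPM in CS and at 1043, 7607 and 7868 CPM in MC, and without MC replicate 16 its log2 fold change was 0.96 ± 0.17 (SE; edgeR, adjusted p = 0.049), against 0.52 ± 0.43 (adjusted p = 0.676) with it. AUAAAGU is miR-142a-5p, a miRNA of blood cells and microglia, at 2.36, 2.07 and 3.06 CPM in CS and 1.03, 9.66 and 8.34 CPM in MC. Its log2 fold change was 1.73 ± 0.29 without MC replicate 16 (SE; edgeR, adjusted p = 0.0469) and 1.29 ± 0.51 with it (adjusted p = 0.586). With the library set in the model and all libraries kept, the log2 fold changes were 0.36 for UGCAUAG and 1.03 for AUAAAGU (edgeR, adjusted p = 0.961 for both). As single miRNAs, tested over 773 miRNAs without MC replicate 16, neither passed, the smallest adjusted p being 0.0718. Both miRNAs were also higher in every MS than in every SS library: miR-153-3p stood at 2637, 2106 and 3063 CPM in SS and 6780, 8548 and 5656 CPM in MS, and miR-142a-5p at 3.04, 2.89 and 3.16 CPM and 5.93, 6.39 and 7.22 CPM. The share of all tested miRNAs without overlap between MS and SS was not counted, so these are given as values only.

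The let-7 family, which restrains growth genes, showed how strongly MC replicate 16 bore on the comparison. let-7c-5p stood at 34820, 33460 and 32860 CPM in CS and at 116000, 35020 and 26860 CPM in MC, and let-7b-5p at 14540, 14140 and 12150 CPM in CS and 47740, 12140 and 10130 CPM in MC. Their log2 fold changes were 1.25 and 1.24 with MC replicate 16 and -0.24 and -0.39 without it. Against the median of the other 5 libraries, MC replicate 16 held 3.93 times as much let-7b-5p, 3.47 times as much let-7c-5p and 2.6 times as much let-7e-5p. It was also the highest for let-7a-5p (1.348 times) and let-7d-5p (1.325 times). By contrast, it held 0.523 times as much let-7f-5p, 0.499 times as much let-7g-5p, 0.615 times as much let-7i-5p and 0.56 times as much miR-98-5p. As the sequences above show, the members printed there share their seed and differ in the second part of the strand. let-7d-5p, not printed, has the same seed and also differs at the first base. The GC content of the 9 members runs from 31.8% (let-7f-5p, miR-98-5p) to 45.5% (let-7b-5p). All thus belong to the miRNAs with at most 45.5% GC, whose median log2 ratio in MC replicate 16 was -1.04. The high let-7a-5p, let-7b-5p, let-7c-5p, let-7d-5p and let-7e-5p in that library therefore went against its GC trend. let-7i-5p was low although its GC content (40.9%) equals that of let-7c-5p. Among the other 5 libraries the members stayed close, let-7a-5p for example at 18450, 14180 and 15950 CPM in CS and 16540 and 14340 CPM in MC. Of the 9 members tested, 0 passed, 5 had a log2 fold change above 0 with MC replicate 16 and 1 without it, and the median log2 fold change was 0.36 with and -0.17 without it. Over all 746 known miRNAs tested the medians were 0.067 with it and -0.004 without it. With an adjustment for GC content, added after seeing the data, and all libraries kept, the let-7 median was 0.84. The median of the 636 known miRNAs in that fit was 0.058.

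**Figure D5:**
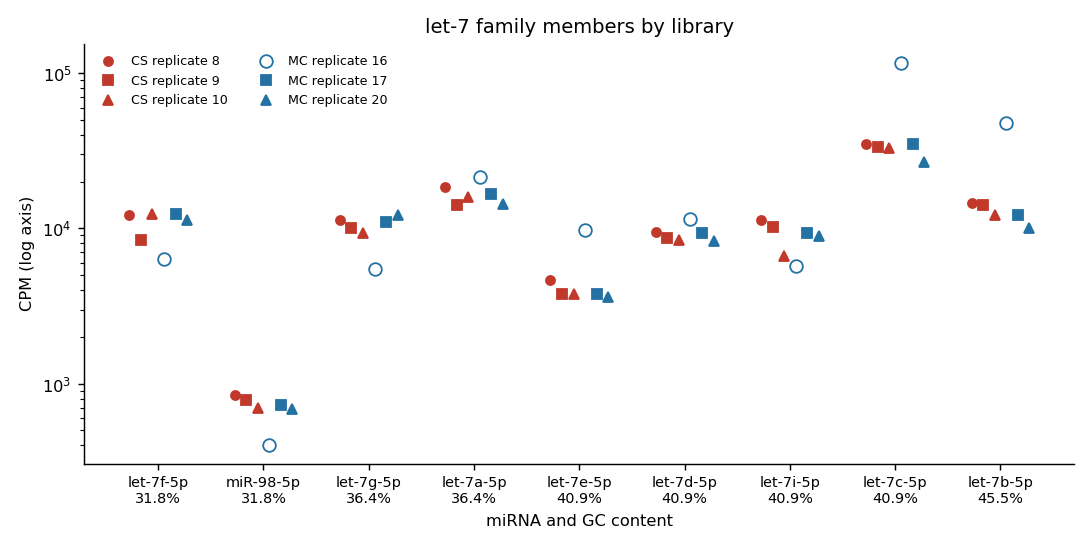
CPM on a log axis (y axis) of the 9 let-7 family members (x axis, ordered by GC content) in the 6 libraries. MC replicate 16 (open circles) lies far above the others for let-7b-5p, let-7c-5p and let-7e-5p and less far above them for let-7a-5p and let-7d-5p. It lies below them for let-7f-5p, let-7g-5p, let-7i-5p and miR-98-5p, while the other libraries lie together.

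Of the 6 miRNAs known to target DNA methyltransferases, 0 passed. miR-29a-3p stood at 3477, 2864 and 3669 CPM in CS and at 1532, 5877 and 5476 CPM in MC, and miR-29c-3p at 872, 793 and 926 CPM in CS and 303, 1592 and 1415 CPM in MC. MC replicates 17 and 20 thus lay above all CS libraries and MC replicate 16 below them. The log2 fold change of miR-29a-3p was 0.34 ± 0.30 (SE; edgeR, adjusted p = 0.647), and 0.65 without MC replicate 16. Reads of the mir-29 precursor family had the same order, at 17630, 15830 and 16910 CPM in CS and 5199, 23060 and 24600 CPM in MC. In the groups without cocaine miR-29a-3p stood at 2157, 1632 and 2244 CPM (SS) and 4692, 7983 and 5338 CPM (MS), with no overlap. Again, the share of all tested miRNAs without overlap between MS and SS was not counted. The median log2 fold change of the 6 was -0.13, and 0.225 without MC replicate 16, when 5 of the 6 lay above 0.

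Activity-regulated miRNAs, transcribed with CREB in active neurons, gave no call among 4 tested. miR-132-5p stood at 3746, 4371 and 2976 CPM in CS and 1968, 2873 and 4775 CPM in MC, and miR-212-3p at 3223, 2073 and 1843 CPM in CS and 1850, 2543 and 2307 CPM in MC. The list's median log2 fold change was -0.29, and 3 of 4 lay below 0. Of 7 miRNAs linked to cocaine in earlier work, which include miR-124-3p, miR-9-5p and miR-181a-5p, 0 passed, 1 (miR-181a-5p) lay above CS in every MC library, against 3.08% of all known miRNAs tested, and the median was 0.04.

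Of 107 mature strands of the imprinted Dlk1-Dio3 cluster, a brain-rich maternal cluster whose expression depends on DNA methylation, 96 were tested and 0 passed. Their median log2 fold change was 0.01, 50 lay above 0 and 46 below, and 1 of the 96 in each direction did not overlap between the groups, against 3.08% above and 1.88% below over all known miRNAs tested (miR-329-5p above; miR-544-3p below, at 10.6, 9.3 and 9.17 CPM in CS and 1.29, 8.78 and 8.98 CPM in MC). Summed, they stood at 42310, 32500 and 33260 CPM in CS and at 35030, 40780 and 38980 CPM in MC. miR-127-3p, its most abundant strand, stood at 9967, 7412 and 9746 CPM in CS and 18200, 12750 and 9789 CPM in MC, with a log2 fold change of 0.86 that was 0.21 without MC replicate 16. miR-411-5p stood at 3899, 3407 and 3063 CPM in CS and 828, 3862 and 3705 CPM in MC.

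The 3 miRNAs that the study singled out on these samples, and which are thus no independent choice, gave no call, and their log2 fold changes were -2.36, -0.50 and -0.37. miR-224-5p, from an intron of the GABA receptor gene Gabre (chrX:72261031-72261112), stood at 10.0, 7.58 and 0.367 CPM in CS and 0.258, 0.376 and 2.47 CPM in MC. Only CS replicates 8 and 9 were high, along with SS replicate 12 of their set (11.1 CPM). miR-340-3p stood at 229, 192 and 124 CPM in CS and 43.8, 146 and 189 CPM in MC. miR-330-5p stood at 2009, 914 and 658 CPM in CS and 702, 768 and 896 CPM in MC, so that CS replicate 8 was high and the rest overlapped.

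The 9 neuronal miRNAs, the markers of the labelled tissue, were all counted and summed to 161400, 261500 and 257000 CPM in CS and to 111900, 157800 and 169400 CPM in MC, with miR-124-3p making most of the difference, and overlapped. Their median log2 fold change was -0.10, with 4 above 0 and 5 below, and 1 of them had an unadjusted p under 0.05. This was miR-129-5p, named after its values were seen, at 1919, 1354 and 1469 CPM in CS and 3841, 1695 and 1803 CPM in MC, with a log2 fold change of 0.98 that was 0.056 without MC replicate 16. Without that library the median of the 9 was 0.04 and 6 lay above 0. The 4 oligodendrocyte miRNAs summed to 1490, 1746 and 946 CPM in CS and 977, 1542 and 796 CPM in MC. Within them miR-219a-2-3p stood at 593, 724 and 549 CPM in CS and 856, 547 and 64.8 CPM in MC, while miR-219a-5p stood at 653, 716 and 244 CPM in CS and 73.5, 711 and 525 CPM in MC, so the 2 strands did not go together, and the list's median log2 fold change was -0.15 with 2 above 0 and 2 below, and -0.17 with 1 above 0 without MC replicate 16. The 6 miRNAs of microglia and leukocytes summed to 1042, 1095 and 2082 CPM in CS and 1571, 2747 and 2643 CPM in MC. They were led by miR-150-5p, a lymphocyte miRNA, at 371, 507 and 1590 CPM in CS and 1212, 2267 and 1896 CPM in MC, and by miR-146a-5p, an inflammation-induced miRNA, at 628, 540 and 470 CPM in CS and 345, 434 and 542 CPM in MC. Their median log2 fold change was 0.82 (4 above 0 and 2 below, 2 with an unadjusted p under 0.05, namely miR-142a-5p and miR-223-3p), and it was 1.06 without MC replicate 16.

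The 5 red blood cell miRNAs summed to 2400, 2687 and 2410 CPM in CS and 465, 3615 and 3088 CPM in MC. Nearly all of this was miR-451a, at 2341, 2658 and 2378 CPM in CS and 382, 3549 and 3045 CPM in MC. Their median log2 fold change was 0.71, with 3 above 0 and 2 below, and without MC replicate 16 it was 0.95 with 4 above 0. miR-486b-5p alone had an unadjusted p under 0.05. The 5 miRNAs of endothelium and vessel wall summed to 12470, 11790 and 10310 CPM in CS and 3790, 11900 and 12050 CPM in MC, led by miR-126a-3p (8016, 7304 and 6427 CPM in CS; 2776, 6904 and 7330 CPM in MC) and miR-143-3p (3936, 4065 and 3396 CPM in CS; 776, 4221 and 4031 CPM in MC). The median of these 5 was 0.11, with 3 above 0 and 2 below, and 0.39 with 4 above 0 without MC replicate 16. In both lists MC replicate 16 was low and MC replicates 17 and 20 were in or above the CS range. The 12 miRNAs of choroid plexus and ependyma summed to 2365, 2398 and 2545 CPM in CS and 777, 1602 and 2790 CPM in MC, led by miR-204-5p (2111, 2073 and 1485 CPM in CS; 681, 1275 and 2289 CPM in MC) and miR-429-3p (54.5, 98.1 and 459 CPM in CS; 29.9, 87.5 and 67.7 CPM in MC). Their median log2 fold change was -0.39, 10 of the 12 lay below 0, and without MC replicate 16 the median was -0.265 with 4 above 0. Of the 12, 1 lay below CS in every MC library, against 1.88% of all known miRNAs tested, namely miR-211-5p (6.26, 6.55 and 6.23 CPM in CS; 2.32, 2.26 and 5.5 CPM in MC).

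The 4 muscle miRNAs summed to 29.1 to 43.1 CPM in CS and 42.9 to 64.6 CPM in MC, most of it miR-133a-3p (26.0 to 39.5 CPM in CS and 39.3 to 59.7 CPM in MC), with miR-1a-3p at 0.258 to 3.12 CPM over the 6 libraries. The 3 tested had a median log2 fold change of 0.58, and all 3 lay above 0, and without MC replicate 16 the median was 0.47 with 2 above 0. The 4 liver and gut miRNAs summed to 137 to 511 CPM in CS and 206 to 681 CPM in MC, led by miR-194-5p (11.7 to 347 CPM in CS and 38.6 to 299 CPM in MC) and miR-192-5p (116 to 149 CPM in CS and 34.1 to 266 CPM in MC). miR-122-5p, the defining liver miRNA, stood at 14.4, 10.8 and 9.04 CPM in CS and at 140, 9.91 and 116 CPM in MC. The 3 tested of this list had a median log2 fold change of -0.03 with 1 above 0, and of 0.37 with all 3 above 0 once MC replicate 16 was left out. No member of any of these marker lists passed by edgeR. The part of these cell types in the other results was not tested.

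Of 125 miRNA precursor families 0 (0%) passed by edgeR, and 8 had an unadjusted p under 0.05, 2 higher and 6 lower in MC. All MC libraries lay above all CS libraries in 2 (1.6%) and below in 5 (4%). DESeq2 called 1 family, mir-1180, which was counted 129 and 146 times in CS replicates 8 and 9, 156 times in SS replicate 12 of the same set, and 0 times in CS replicate 10 and in all MC libraries. Log2 fold changes of this class depended on the scaling, with a median of 0.05 by TMM and of -0.165 and -0.193 with factors from all features and with total counts.

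The 3 higher families with the smallest p were mir-199, mir-124 and lin-4. mir-199 stood at 6.02, 4.71 and 3.3 CPM in CS and at 1.93, 2.88 and 114 CPM in MC, and lin-4, the family of miR-125, at 373, 290 and 302 CPM in CS and 282, 469 and 2204 CPM in MC. Both rested on MC replicate 20, and SS replicates 13 and 14 and the MS libraries, which share its set, held 20.2 to 41.5 CPM of mir-199 and 783 to 3129 CPM of lin-4. mir-124 had the values given above, with CS replicate 10 above MC replicate 20.

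The 3 lower families were mir-1937, mir-433 and mir-21, and all were high in CS replicates 8 and 9 alone. mir-21, a family induced in injury and inflammation, stood at 247, 132 and 0.856 CPM in CS and 1.03, 1.38 and 9.62 CPM in MC, with 140 CPM in SS replicate 12. With the library set in the model its log2 fold change was 0.58 in place of -4.58. mir-433 stood at 49.6, 38.4 and 8.56 CPM in CS and 6.18, 6.02 and 16.0 CPM in MC, and mir-1937 at 3.78, 3.56 and 0.733 CPM in CS and 0.386, 0.627 and 1.1 CPM in MC. Mature miR-21a-5p stood at 6844, 7941 and 1339 CPM in CS and 338, 1894 and 9181 CPM in MC. SS replicate 12 held 7358 CPM of it. Like its precursor family, it was high in CS replicates 8 and 9 and lower in CS replicate 10 and MC replicates 16 and 17. It departed from the family in MC replicate 20, where the mature strand was highest and the family stood at 9.62 CPM.

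Among 34 predicted miRNAs tested, 4 had an unadjusted p under 0.05 and 0 passed by edgeR. novel_mir4 stood at 6.49, 8.38 and 6.97 CPM in CS and 3.35, 2.88 and 2.38 CPM in MC, and novel_mir73 at 6.61, 4.94 and 1.96 CPM in CS and 1.29, 1.25 and 1.37 CPM in MC, both without overlap. novel_mir89 was counted 30 times over the CS libraries and 0 times over the MC libraries, at least 10.5-fold higher in CS with 3 counts over the group as the limit, but it was also at 0 in CS replicate 10. The bound was 6.21 without MC replicate 20. novel_mir7 was counted 0 times in CS and 32 times in MC, at least 10.15-fold higher in MC, none of it in MC replicate 17, and the bound was 6.67 without CS replicate 9. novel_mir13 (0, 0 and 2.93 CPM in CS; 13.0, 1.88 and 2.75 CPM in MC) and novel_mir22 (4.37, 2.3 and 3.79 CPM in CS; 13.9, 5.27 and 3.3 CPM in MC) overlapped.

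Of 281 piRNAs tested 0 (0%) passed by edgeR, and 13 had an unadjusted p under 0.05, 7 higher and 6 lower. The 3 higher with the smallest p, novel_pir595, novel_pir568 and novel_pir581, were predicted from 1 repeat of the MaLR class on chromosome 2, and all were highest in MC replicate 16. novel_pir595 stood at 1.53, 1.61 and 1.22 CPM in CS and 10.4, 3.64 and 3.76 CPM in MC, novel_pir581 at 1.77, 0 and 3.91 CPM in CS and 40.03, 6.9 and 8.25 CPM in MC, and novel_pir568 was counted 0 times in CS and 87, 11 and 22 times in MC (at least 38.1-fold higher, and at least 14.8-fold without MC replicate 16). The lower ones were novel_pir684 (223 counts in CS, none of them in replicate 10, and 0 in MC, at least 78.1-fold higher in CS and at least 46.1-fold without MC replicate 20), novel_pir85 (137 and 0 counts, at least 48.0-fold higher in CS and at least 28.3-fold without MC replicate 20) and, from the same repeat as novel_pir684, novel_pir701 (7.32, 9.88 and 9.53 CPM in CS; 3.09, 5.27 and 4.76 CPM in MC). CS replicates 8, 9 and 10 held 69, 56 and 12 counts of novel_pir85. SS replicate 12, which shares the set of CS replicates 8 and 9, held 64 counts of novel_pir85 and 98 of novel_pir684. SS replicates 13 and 14 held 0 of novel_pir85 and 18 and 12 of novel_pir684. DESeq2 called novel_pir684 alone.

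Of 194 other small RNA fragments 0 (0%) passed by edgeR, and 12 had an unadjusted p under 0.05, 8 higher and 4 lower; DESeq2 called 0, with 14 at an unadjusted p under 0.05. The median log2 fold change of the class moved from -0.08 to 0.40 with factors from all features, and that of piRNAs from -0.03 to 0.15. SNORA57 stood at 0.944, 0.459 and 0.611 CPM in CS and 5.28, 1.13 and 2.11 CPM in MC, and the renin stability element at 0.236, 0.23 and 0.244 CPM in CS and 0.901, 0.753 and 1.37 CPM in MC. SNORD51 was counted 0 times in CS and 17 times in MC (at least 5.39-fold higher, and at least 2.69-fold without MC replicate 20), none in MC replicate 17. Among the lower, SNORD103/SNORD85 was counted 24 times in CS and 3 times in MC (ratio 8.41, 95% exact interval 2.55 to 43.6; 4.73 without CS replicate 8), SNORA21 stood at 1.3, 0.459 and 0.367 CPM in CS and 0.129, 0.125 and 0.367 CPM in MC, and a family named for Pseudomonas, P10, stood at 4.96, 5.51 and 0.122 CPM in CS and 0.258, 0.125 and 0.183 CPM in MC. The last was again high in CS replicates 8 and 9 and in SS replicate 12 (4.74 CPM).

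Whether the difference with MET was another one in mice without cocaine was tested for each miRNA as (MC - CS) - (MS - SS) on the log2 scale. Of 780 miRNAs 0 (0%) passed by edgeR, 34 had an unadjusted p under 0.05, and the smallest adjusted p was 0.804. A difference between the effects of MET with and without cocaine was therefore not detectable for any miRNA with 3 libraries a group.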

How the data were processed

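The 12 libraries were grouped by the treatment labels, with CS and MC compared. Per the paper's methods, the authors filtered the reads, mapped them to the genome with AASRA and, once matches to tRNA, rRNA and miRNA were removed, aligned what was left to piRBase with Bowtie (the submitters' processing notes name mm10, with no version of Bowtie). They deposited for each small RNA a count of reads without normalization and a TPM value, the authors' count scaled to the library total. CPM here is the same quantity, and the deposited TPM equalled it within 0.005.

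Counts were tested in R 4.3.3 with the quasi-likelihood test of edgeR 4.0.16 (1 coefficient per group over the 12 libraries, total count as library size, TMM factors and dispersions within a class, at least 5 counts in at least 3 libraries, Benjamini-Hochberg adjustment over the class). Shares were compared with exact two-sided permutation tests (SciPy 1.17.1, 20 splits). The p-values weigh a difference against the spread between libraries, each a pool of 2 animals. In the main fit that spread also holds the differences between library sets and the GC trend of MC replicate 16. The edgeR step was run on simulated counts of independent libraries with known fold changes. These counts held no library sets and no GC trend, so they check the code and not its error rate on these libraries. Replicates of a group differed by more than sampling noise, with a chi-square per degree of freedom of at least 235.1 over known miRNAs. Totals of the 6 CS and MC libraries between 7.77 and 10.9 (in units of 1e+06 counts) limit the precision for features under about 10 counts.

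Named were the 6 known miRNAs with the smallest p in each direction (as none was called; otherwise up to 12), the 10 with the highest mean CPM, the 3 in the paper, the 2 most abundant members of each list, 5 seed families and 3 of each other class in each direction, and all classes. Other small RNAs in the text were chosen after their values were seen (among them miR-10a-5p, miR-21a-5p, miR-96-5p, miR-122-5p, miR-142a-5p, miR-153-3p, miR-183-5p, miR-199b-3p, miR-200a-3p, miR-203-3p, miR-211-5p, miR-486a-5p, miR-544-3p and the less abundant let-7 members). The members and lists were chosen with earlier results of these data known. Alternatives were DESeq2 1.42.0, 2 other scalings, 2 other filters, the 6 libraries alone, a limit on the fold change, the library set as a covariate, another denominator, only the most abundant member of a seed family, each library left out and, added after seeing the data, an adjustment for GC content.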

Additional observations from a re-analysis of the deposited data

How the results depend on the processing

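No paired analysis was possible because CS and MC share no replicate number. With 3 pools a group and features of few counts, small differences are not detectable. The number of miRNAs called stayed at 0 under every alternative run, including DESeq2, the library set as a covariate (16 miRNAs at an unadjusted p under 0.05, against 58) and the adjustment for GC content, added after seeing the data (50 of 636, against 48 of the same miRNAs unadjusted). The limit on the fold change only removes calls from the main fit, so with 0 calls there it could give nothing else. Leaving out 1 library gave 0 to 2 seed families, the 2 being those without MC replicate 16, and 0 in the other classes. DESeq2 called 1 precursor family and 1 piRNA, and without a filter 4 piRNAs and 3 other fragments were called. The cause was not tested. Of 46 features named for their small p, 43 kept the direction of their log2 fold change in all alternatives run. The 46 were picked by p in each direction on these same counts, so a kept direction is no check of stability. Some enter the tally both as a miRNA and as a seed family that holds only that miRNA. This tally leaves out the miRNAs named for their abundance, for a list or from the paper. Some of those changed direction without MC replicate 16, such as let-7c-5p (1.25 with it and -0.24 without it). With each library left out in turn, the log2 fold change of GUCAGUU (miR-223-3p) ran from -0.62 (without MC replicate 20) to 4.17 and that of the precursor family mir-199 from -0.48 (without MC replicate 20) to 3.86, and with the library set as a covariate the precursor family mir-21 gave 0.58. Of 144 alternative values of class shares and composition, 1 moved by 1 SD or more: within the set that holds both groups the difference in the intron share was 0.184 percentage points, against 0.69. Leaving out 1 of 3 libraries cannot move such a difference by 1 SD (pooled over CS and MC). The values with 1 library left out, which are most of the 144, are therefore no check of stability.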
